A study of Mus musculus with 3 samples.

Results

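The genes described here are 8 genes of the interleukin-4 (IL-4) response of macrophages. They were chosen by name for their known part in that pathway, with earlier results of these data known. They are Retnla, Chi3l3, Il4ra, Il13ra1, Stat6, Irf4, Pparg and Tgm2, and all 8 were found among the 36835 genes with a level. Their RNA was measured by RNAseq in 3 cell subsets sorted from BALB/C mice bearing tumors of the mouse renal carcinoma cell line Renca, grown in the kidney, for which the study names the form that carries Cherry and luciferase (Renca Ch+ L+). Type-1 macrophages (M1, high for CD11b and intermediate for the macrophage antigen encoded by Emr1) and type-2 macrophages (M2, intermediate for CD11b and high for that antigen) were sorted from 30 pooled tumors, and CD4 T cells (TCRβ+ and CD4+) from 4 pooled spleens, although another label places the CD4 T cells in tumors. The labels give both day 14 and day 16 after tumor injection for the harvest. No treatment with IL-4 is described for any of the mice. Each subset was 1 library, so that no difference between libraries has a replicate check, and no p-value is given.

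Levels are in FPKM, the number of sequenced fragments scaled to transcript length and to sequencing depth. Depth was estimated at 7.45e+07 fragments for the library labelled CD4, 5.97e+07 for M1 and 5.89e+07 for M2. The markers of the sorted cells go against the labels M2 and CD4. All 14 T cell markers found were highest in the library labelled M2, with a summed level of 2206 FPKM there, 5.93 in M1 and 2.98 in CD4. The 12 macrophage markers found summed to 12800 FPKM in the library labelled CD4, 8300 in M1 and 648 in M2. With all repeated rows of a transcript added, the order of the libraries in the macrophage sum stayed, and all 14 T cell markers were again highest in M2. For this reason each library is called by its label only, and every direction given rests on those labels. In sorted bulk samples, fewer cells of a type and less RNA per cell cannot be told apart.

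IL-4 and IL-13 are cytokines of type 2 immunity. They bind receptors that share the IL-4 receptor alpha chain, whose kinases phosphorylate the transcription factor STAT6. STAT6 enters the nucleus and, with partners such as IRF4 and PPARγ, turns on a set of macrophage genes known as alternative activation, in which the secreted proteins RELMα (Retnla) and Ym1 (Chi3l3), arginase and the mannose receptor are the usual markers in the mouse. This program is linked to tissue repair, to defence against worms and to macrophages of tumors.

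Retnla and Chi3l3 are the 2 members that encode secreted effector proteins, and the 250 bases upstream of their annotated starts are shown because STAT-type sequences were found there. In build NCBIM37, also called mm9, the Retnla window is chr16:48842415-48842664 on the forward strand and the Chi3l3 window is chr3:105970483-105970732 on the reverse strand, each printed 5′ to 3′ along the gene. Capitals mark matches to a STAT-type palindrome.
Retnla: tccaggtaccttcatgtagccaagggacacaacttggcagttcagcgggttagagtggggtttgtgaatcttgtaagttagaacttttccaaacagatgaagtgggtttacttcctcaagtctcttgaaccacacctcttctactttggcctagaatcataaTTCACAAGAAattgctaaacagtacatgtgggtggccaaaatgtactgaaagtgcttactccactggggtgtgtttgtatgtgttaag
Chi3l3: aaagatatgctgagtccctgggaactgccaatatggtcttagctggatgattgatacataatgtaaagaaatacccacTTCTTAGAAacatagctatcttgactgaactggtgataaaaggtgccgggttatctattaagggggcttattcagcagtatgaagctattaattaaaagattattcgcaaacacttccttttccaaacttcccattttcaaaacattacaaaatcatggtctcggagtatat

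The Retnla match, TTCACAAGAA, has the spacing TTCNNNNGAA, which is the one STAT6 prefers, and lies at positions -88 to -79, where -1 is the last base before the start. It is followed, at -77 to -70, by TTGCTAAA, a match to TTGCNNAA, the sequence type bound by C/EBP factors. The Chi3l3 match, TTCTTAGAA, has the shorter spacing TTCNNNGAA and lies at -172 to -164. Both strands were searched in the windows of 10186 expressed protein-coding genes and the members. TTCNNNNGAA was held by 4.71% of them, TTCNNNGAA by 6.12% and TTGCNNAA by 7.27%. The other 6 members had no match to any of these 3 in their windows. For Il4ra the window was chr7:132707814-132708063, upstream of the transcript ENSMUST00000163585, which starts inside the gene. The bases upstream of the full Il4ra transcript, ENSMUST00000033004, were not searched. The lack of matches for Il4ra, here and below, therefore says nothing about that start. GGAANNGAAA, a composite of ETS and IRF sites, was held by 2.26% of windows. The DR1 element of PPAR and RXR, spelled AGGTCANAGGTCA, was held by 0.0491%. The windows of the 8 members had neither. TATAAA, the TATA box, was held by 6.87% of windows, and among the members by Irf4 alone. A match describes the letters and does not show binding, and these windows start from annotated ends that were not measured here.

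The members were at their highest in the library labelled M1 for 7 of the 8 genes, and Il4ra was at its highest in that labelled CD4. The lowest level was in the library labelled M2 for 5 genes and in CD4 for 3, but where a transcript had repeated rows and all were added it was in M2 for 3, in CD4 for 4 and in M1 for 1 (Il4ra, whose levels in M1 and M2 overlapped within counting error). Between the libraries labelled CD4 and M1, which both held macrophage genes, Retnla, Chi3l3 and Irf4 were at least 2-fold lower in CD4 and Il4ra at least 2-fold higher. Here 2-fold refers to FPKM with 1 added, so that the log2 ratio is 1 or more in either direction, and for genes of low level this ratio is smaller than that of the FPKM themselves. Of 11859 genes with a mean of at least 1 FPKM, 6.43% were lower and 6.14% higher in CD4 than in M1 by this measure. All 8 members were among those genes.

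**Figure D1:**
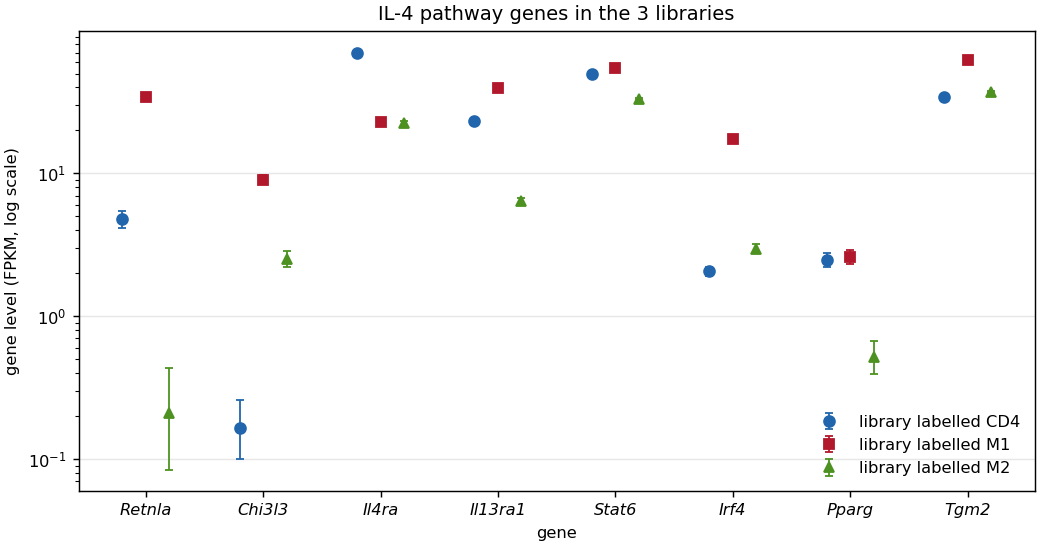
Level of each of the 8 genes (horizontal axis) in FPKM on a log scale (vertical axis) in the libraries labelled CD4 (circles), M1 (squares) and M2 (triangles), 1 library each; bars are 95% Poisson intervals of the approximate number of fragments and cover counting error only. Retnla spans from 34.2 FPKM in M1 to 0.209 in M2, while Stat6 and Tgm2 lie within 2-fold across the 3 libraries.

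Retnla, a small secreted protein of the resistin family, lies on chromosome 16 from 48842665 to 48844574 and has 1 annotated transcript of 598 bases in 4 exons. It was at 34.2 FPKM in the library labelled M1, 4.78 in CD4 and 0.209 in M2. The level in M1 was 7.15 times that in CD4 and 163 times that in M2. The level in M2 corresponds to about 7 fragments (95% Poisson interval of 0.0842 to 0.431 FPKM), against about 1220 in M1 and 213 in CD4. These fragment numbers come from the estimated depth and the full transcript length, and the intervals cover counting error only. On the log2 scale of FPKM + 1, the difference of CD4 from M1 was -2.60, with 1.32% of the 11859 genes further down. Of the other resistin genes, Retnlg, which neutrophils express, was at 2.90 FPKM in M1, 3.63 in M2 and 0.201 in CD4. Retn was at or below 0.0317 FPKM in each library and Retnlb was listed at 0.

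Chi3l3, now named Chil3, encodes the chitinase-like protein Ym1. Its main transcript of 1539 bases in 11 exons lies on the reverse strand of chromosome 3 from 105950472 to 105970482. It was at 9.04 FPKM in the library labelled M1, 2.51 in M2 and 0.165 in CD4. The level in M1 was 54.7 times that in CD4, with a log2 difference of M2 from M1 of -1.52, and the order differed from that of Retnla, which was higher in CD4 than in M2. In CD4 about 19 fragments stood behind the value (0.0996 to 0.258 FPKM), and in M2 about 228. The log2 difference of CD4 from M1 was -3.11, the furthest down of the 8 genes. Chi3l3 has a close copy in Chi3l4. Over 1197 aligned coding bases they are 95.3% identical, and 267 of the 1489 words of 51 bases in the Chi3l3 transcript, 17.9%, also occur in Chi3l4. Chi3l4 was listed at 0 in all 3 libraries, so that how the authors' tools shared such reads could move the Chi3l3 level. Of the other members a single transcript each was searched, and none of these shared a word of 51 bases with another annotated coding gene. For Il4ra this was ENSMUST00000163585, of 2023 bases. Chi3l1 was at 1.17 FPKM in M2 and below that in the others, and Chia and Chit1 at or below 0.0216 FPKM.

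Cells other than macrophages can also make these secreted proteins. Ym1 is made by neutrophils, and of 10 neutrophil markers 8 were highest in the library labelled M2, with summed levels of 235 FPKM there, 65.7 in M1 and 12.3 in CD4. With all rows added the sums were 960.0 FPKM in M2, 435 in M1 and 348 in CD4, since Elane then reached 723, 366 and 336. In M2, M1 and CD4, S100a8 was at 84.5, 19.0 and 4.17 FPKM, Ngp at 26.6, 0.0270 and 0.0126, and Ly6g was listed at 0 in M2, where a further row held 1.26 FPKM, and at or below 0.0916 in the others. Mmp8 was the 1 neutrophil marker highest in M1, at 15.9 FPKM, against 1.08 in M2 and 1.38 in CD4. The part of neutrophils in the Chi3l3 level was not tested. RELMα is also made by eosinophils and fat tissue. The eosinophil marker Epx was at or below 0.00556 FPKM in each library. The 5 eosinophil markers found summed to at most 1.39 FPKM, in M1, where Ear1 made up 1.16. The 6 adipocyte markers summed to at most 0.0981 FPKM, in M2. The part of eosinophils and fat cells in the Retnla level was not tested.

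The receptor chains came next. Il4ra encodes the alpha chain that binds IL-4, on chromosome 7 from 132695785 to 132722986. It was at 69.6 FPKM in the library labelled CD4, 23.0 in M1 and 22.5 in M2. The level in CD4 was 3.03 times that in M1, the opposite direction to Retnla, Chi3l3 and Irf4, and the log2 difference was 1.56. The values of M1 (22.2 to 23.8 FPKM) and M2 (21.7 to 23.2 FPKM) overlapped within counting error. In the rows used, most of each FPKM value lay in the short transcript ENSMUST00000163585, of 2023 bases in 2 exons. It was at 49.1 FPKM in CD4, 18.9 in M1 and 18.5 in M2. The full transcript, ENSMUST00000033004, of 5092 bases in 11 exons, was at 20.5 FPKM in CD4, 4.11 in M1 and 3.95 in M2. Further rows of the full transcript held 27.1 FPKM in CD4, 11.1 in M1 and 12.2 in M2. The share of each transcript thus depended on how rows were read. With all rows added, Il4ra was at 96.6 FPKM in CD4, 34.1 in M1 and 34.6 in M2, in which the excess of CD4 was kept.

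Il13ra1 encodes the chain that pairs with the alpha chain in the type II receptor, which binds IL-4 and IL-13. It lies on chromosome X from 33652105 to 33711254. It was at 39.9 FPKM in the library labelled M1, 23.2 in CD4 and 6.41 in M2. M1 was 1.71 times CD4, a difference under 2-fold, and 6.21 times M2. Il2rg, the common gamma chain that completes the type I receptor of lymphocytes and other blood cells, was highest where Il13ra1 was lowest, at 169 FPKM in M2, 55.8 in M1 and 41.9 in CD4. The level of Il2rg was 26.4 times that of Il13ra1 in the library labelled M2 and 1.80 times in CD4, with M1 below both. The level of Il4ra was 2.99 times that of Il13ra1 in CD4, 3.50 times in M2 and 0.577 times in M1. With all rows added it was 4.16 times in CD4, 5.40 times in M2 and 0.855 times in M1. Il13ra2, the decoy receptor for IL-13, was listed at 0 in M1 and CD4 and at 0.0510 FPKM in M2. Of the ligands, Il4 was listed at 0 in each library and Il13 was at most 0.111 FPKM, in M2. Il4 had further rows that summed to 2.30 FPKM in CD4 and 0.264 in M2.

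Stat6, the transcription factor that the receptor activates, lies on chromosome 10 from 127080042 to 127098013. It was at 55.1 FPKM in the library labelled M1, 49.3 in CD4 and 33.2 in M2, which placed it at percentile 91.1, 90.0 and 85.5 of the genes with a mean of at least 1 FPKM. No pair of libraries differed by 2-fold, and the log2 difference of CD4 from M1 was -0.16. A second row of its transcript held 16.6 FPKM in M2 alone, and with it Stat6 in M2 was at 49.8 FPKM. Stat4, a STAT of T cells and NK cells, was at 23.8 FPKM in M2, 0.947 in M1 and 0.0792 in CD4. Stat5b, a STAT of growth and cytokine receptors, was at 32.8 FPKM in M2, 12.4 in M1 and 14.1 in CD4.

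Irf4, a transcription factor of alternatively activated macrophages, dendritic cells and activated lymphocytes, lies on chromosome 13 from 30841095 to 30858796. It was at 17.3 FPKM in the library labelled M1, 2.97 in M2 and 2.07 in CD4. M1 was 8.35 times CD4 and 5.83 times M2. Its transcripts of 4715 and 4712 bases share both ends, and were at 8.67 and 8.65 FPKM in M1, so that only their sum is used. The M2 value depends on how repeated rows are read. The longer transcript had 3 more rows in M2, at 3.51, 2.32 and 1.51 FPKM, and with these Irf4 in M2 was at 10.3 FPKM and no longer 2-fold below M1. The difference of CD4 from M1 stood in each reading. Irf5, a factor of inflammatory macrophages, was at 124 FPKM in M1, 54.8 in CD4 and 10.2 in M2, and of the 6 other IRF genes with a mean of at least 1 FPKM it was the 1 that was 2-fold lower in CD4 than in M1. Irf8 was not analysed here.

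Irf4 is also high in some dendritic cells. Of 8 dendritic cell markers, Itgax was at 124 FPKM in the library labelled M1, 29.5 in CD4 and 5.30 in M2, Cd209a at 23.7, 0.653 and 3.53, and Batf3 at 11.0, 4.21 and 0.404 in the same order. Flt3, Xcr1 and Clec9a were each at or below 0.532 FPKM in M1 and CD4, and at 2.19, 0.533 and 1.09 in M2. Zbtb46 was at 1.42 FPKM in M1, 1.21 in CD4 and 0.628 in M2. Summed over the 8 markers, M1 was at 167 FPKM, M2 at 136 and CD4 at 37.2, but in M2 a single marker, Ccr7, which naive T cells also express, made up 122 FPKM. The part of dendritic cells in the levels of Irf4, Ccl17 and Ccl22 was not tested. Of 8 B and plasma cell markers found, 5 were highest in the library labelled M2, with summed levels of 115 FPKM there, 46.1 in CD4 and 33.1 in M1. Blnk, at 37.3 FPKM, was highest in CD4, and Cd79b was listed at 0 in M2.

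Pparg, the lipid-sensing nuclear receptor PPARγ, was the member with the lowest level in M1. It lies on chromosome 6 from 115311239 to 115440419. It was at 2.61 FPKM in the library labelled M1, 2.48 in CD4 and 0.522 in M2. The first 2 overlapped within counting error, at 2.32 to 2.93 and 2.22 to 2.75 FPKM, and about 57 fragments stood behind the value of M2. The whole level lay in the transcript ENSMUST00000171644, with 1425 coding bases, the length of PPARγ1. ENSMUST00000000450, with 1515 coding bases, the longer PPARγ2 of fat cells, starts downstream at 115372084 and was listed at 0 in each library. At the estimated depths, 3 fragments on it would give 0.0228 to 0.0288 FPKM, a bound that assumes the listed 0 is a true estimate. Rxra, the partner of PPARγ on DNA, was at 23.6 FPKM in M1, 16.6 in CD4 and 10.5 in M2. Ppard, a related receptor, was at 12.7 FPKM in CD4, 9.71 in M1 and 7.97 in M2, above Pparg in every library.

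Tgm2, a transglutaminase that crosslinks proteins and is a marker of alternative activation shared by mouse and human macrophages, lies on the reverse strand of chromosome 2 from 157942138 to 157972172. It was at 62.2 FPKM in the library labelled M1, 37.2 in M2 and 34.4 in CD4. M1 was 1.81 times CD4 and 1.67 times M2, both under 2-fold. Endothelium is also rich in Tgm2, and of 7 endothelial markers Cdh5, Kdr, Tek, Tie1 and Emcn were at or below 1.48 FPKM in each library, Vwf was highest in M1, at 2.60, and listed at 0 in M2, and Pecam1, which leukocytes share, reached 35.0 in M2. The part of endothelium in the Tgm2 level was not tested. F13a1, the transglutaminase of clotting factor XIII and an IL-4 target, was at 378 FPKM in CD4, 54.3 in M1 and 13.7 in M2. Between CD4 and M1 it went the other way from Tgm2, while both were lower in M2 than in M1. Tgm1 was at 5.30 FPKM in CD4, 0.874 in M1 and 0.410 in M2, but at 8.99, 6.98 and 1.41 with all rows added, when CD4 and M1 no longer differed by 2-fold. The other transglutaminases were at or below 0.153.

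**Figure D2:**
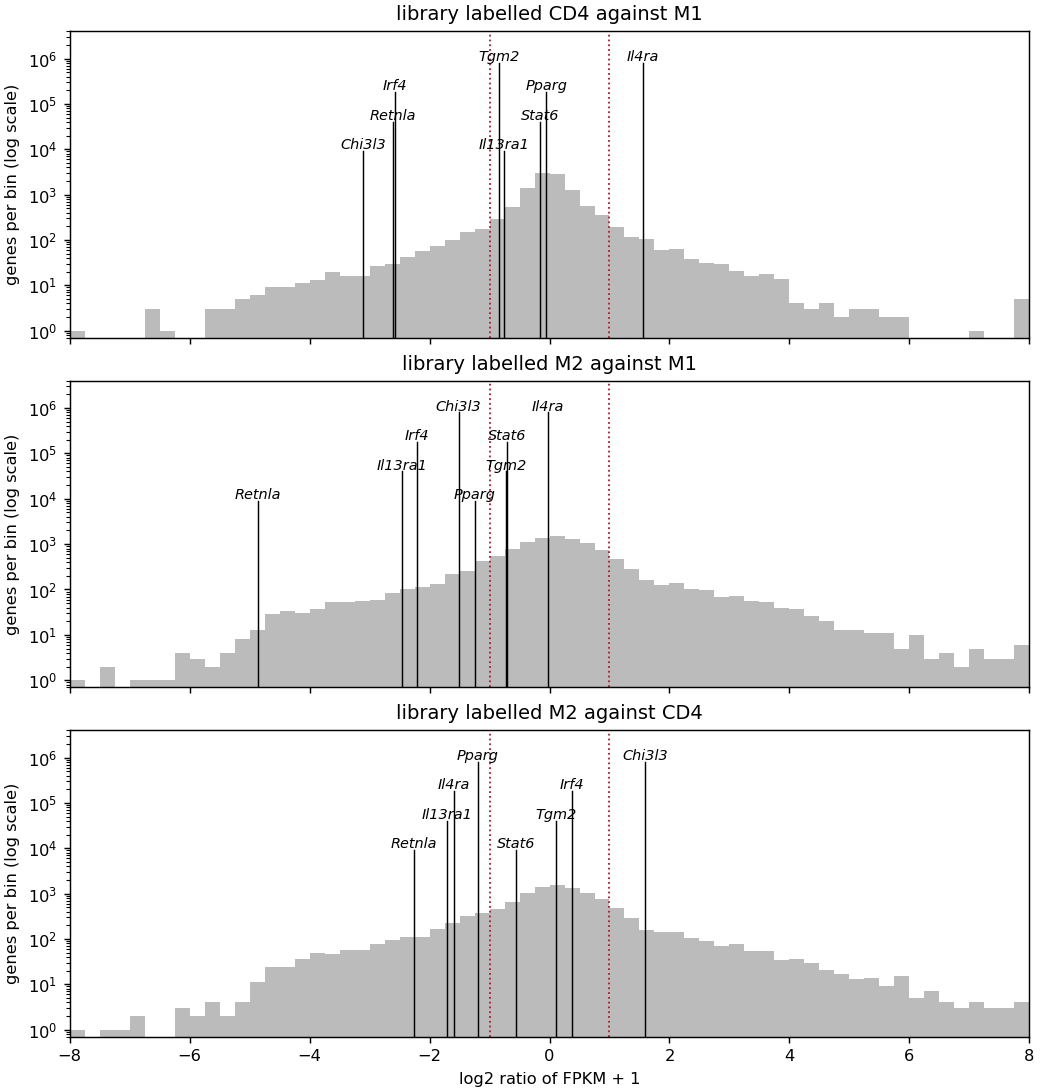
Number of genes per bin of 0.25 (vertical axis, log scale) against the log2 ratio of FPKM + 1 (horizontal axis) for 11859 genes, in 3 comparisons of 1 library each; vertical lines mark the 8 genes, their heights serve only to place the names, dotted lines mark 2-fold, and ratios beyond the axis are in the end bins. Chi3l3, Retnla and Irf4 lie in the lower tail of CD4 against M1 and Il4ra in the upper.

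The library labelled M2 was lower than M1 by at least 2-fold for 5 of the 8 genes, namely Retnla, Il13ra1, Irf4, Chi3l3 and Pparg, and higher for 0. With all rows added there were 4, since Irf4 no longer passed. Of all 11859 genes, 14.4% were lower and 15.5% higher in this comparison. The median log2 difference was -1.38 over the 8 genes and 0.07 over all genes. Against CD4, M2 was lower for Retnla, Il13ra1, Il4ra and Pparg and higher for Chi3l3, where 15.2% of all genes were lower and 15.9% higher. The log2 differences were -2.26 for Retnla and 1.59 for Chi3l3. For CD4 against M1 the median was -0.80 over the 8 genes and -0.01 over all genes. These 3 comparisons share libraries and are not independent of each other.

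A wider list held 26 IL-4 target genes known from macrophages and other cells. Of 23 with a mean of at least 1 FPKM, 14 were at least 2-fold lower in CD4 than in M1 and 3 were higher, against 6.43% and 6.14% of all genes. The median log2 difference was -1.44, against -0.01 over all genes. Like the members, the list was chosen with earlier results of these data known, so these counts describe the levels only. In the lower group stood the chemokines Ccl17, at 40.5 FPKM in M1 and 1.29 in CD4, and Ccl22, at 18.6 and 0.952, which both attract T cells through CCR4. Ccl17 was 31.4 times and Ccl22 19.6 times higher in M1. Alox15, a lipoxygenase, was at 23.4 FPKM in M1 and 2.25 in CD4, and Cdh1, which encodes E-cadherin, at 48.2 and 3.84. Epithelium also expresses Cdh1, and 10 markers of kidney epithelium summed to 46.9 FPKM in M1, 68.3 in CD4 and 132 in M2, carried mostly by Cdh16. Of the 10 markers, 5 were highest in CD4, 4 in M2 and 1 in M1. That 1 was Epcam, at 2.39 FPKM in M1 against 0.536 in CD4 and 0.786 in M2. The part of epithelium in the Cdh1 level was not tested. Slc7a2, a transporter of arginine, was at 10.1 and 0.924 FPKM, and Arg1, which encodes arginase and cleaves that amino acid, at 321 and 88.5. The matrix protein Fn1 was at 558 and 206 FPKM, the lectins Mgl2 at 292 and 121 and Clec7a at 70.9 and 21.5, the antagonist of IL-1 Il1rn at 110 and 46.2, its decoy receptor Il1r2 at 10.3 and 0.974, and the ribonuclease Ear11 at 11.4 and 1.53.

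The 3 target genes on the other side were Mrc1, F13a1 and Clec10a. Mrc1, the mannose receptor, was at 649 FPKM in the library labelled CD4, 215 in M1 and 19.5 in M2. F13a1 was 6.96 times higher in CD4 than in M1. Clec10a, a lectin related to Mgl2, was at 59.6 FPKM in CD4 and 29.2 in M1, a log2 difference of 1.01, just past the threshold. Among those within 2-fold, Msr1, a scavenger receptor, was at 262 FPKM in CD4 and 203 in M1, Ccl24, an attractant of eosinophils, at 10.1 and 8.21, and Myc at 19.5 and 23.1. The accepted markers of alternative activation thus stood on both sides, with Retnla, Chi3l3 and Arg1 higher in M1 and Mrc1 higher in CD4.

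**Figure D3:**
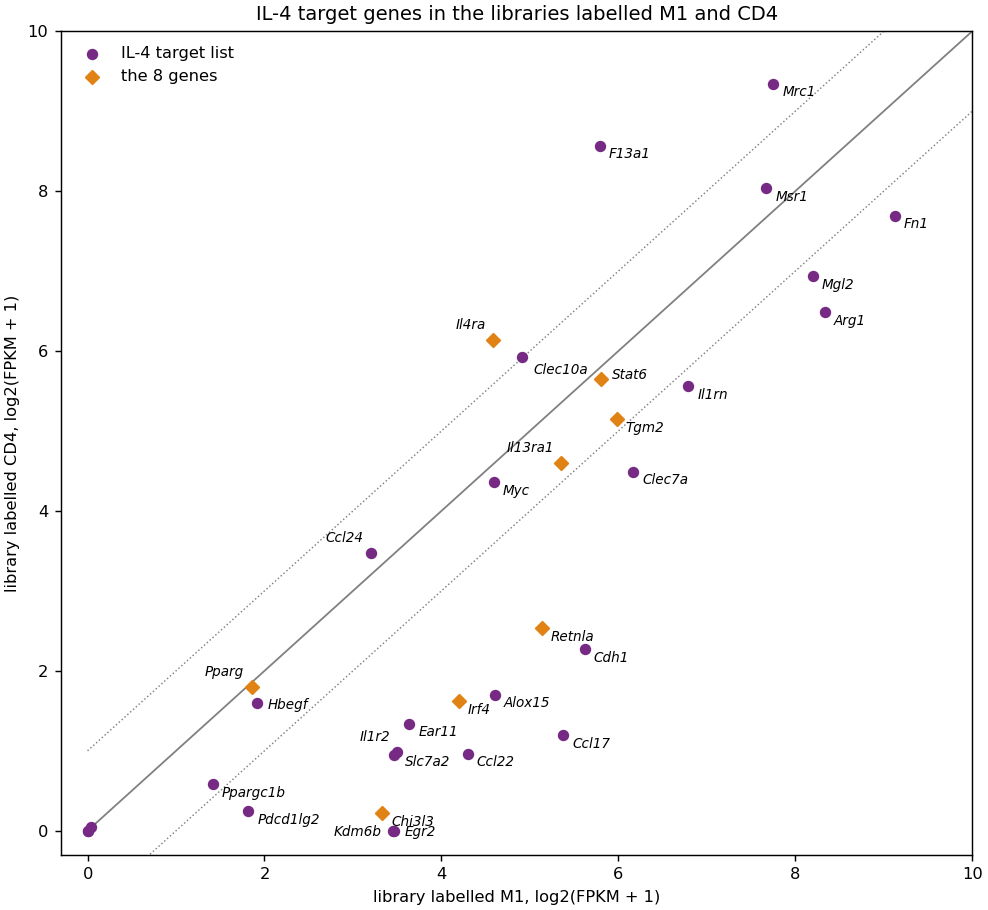
Level of the IL-4 target genes (circles) and of the 8 genes (diamonds) in the library labelled M1 (horizontal axis) and that labelled CD4 (vertical axis), both as log2(FPKM + 1), 1 library each; the solid line marks equal levels, dotted lines 2-fold, and genes under 1 FPKM in both are not named. Of the 23 target genes with a mean of at least 1 FPKM, 14 lie below the lower dotted line and 3 above the upper one.

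In the target list 4 genes were listed at 0 in CD4, and of these Egr2 and Kdm6b were counted as lower. In M1 Kdm6b was at 9.94 FPKM, and Egr2 at 17.0 with its further rows. Further rows of these genes held 3.25 FPKM for Egr2 and 6.93 for Kdm6b in CD4, so that a listed 0 need not mean that RNA was missing. Klf4, another of the 4, had further rows of 17.5 FPKM in CD4 alone, so that with all rows added 4 target genes were higher in CD4 and 14 of 25 lower. Kdm6b was then within 2-fold, with a log2 difference of CD4 from M1 of -0.76. Pdcd1lg2, which then had a mean of at least 1 FPKM, was counted as lower instead (-1.35). Without genes listed at 0 in any library, a reading chosen after the values were seen, 12 of 21 target genes were lower in CD4 and 3 higher. In the library labelled M2, 18 of 23 target genes were at least 2-fold lower than in M1, against 14.4% of all genes (15.5% were higher), and Fcer2a, the low-affinity IgE receptor of B cells, was the 1 that was higher, at 7.92 FPKM against 0.0248.

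Of the kinases, brakes and other signalling genes of the receptor, 4 of 12 were lower in the library labelled CD4 than in M1 and 0 higher, against 6.43% and 6.14% of all genes. The 4 were Cish, Jak2, Socs1 and Tyk2. Cish, a STAT-induced inhibitor, was at 12.4 FPKM in M1, 11.8 in M2 and 2.25 in CD4. Socs1, another inhibitor of the Janus kinases, was at 6.14 FPKM in M1, 15.3 in M2 and 1.99 in CD4. Jak2 was at 26.3 FPKM in M1, 26.1 in M2 and 9.50 in CD4. Tyk2 was at 20.5 FPKM in M1, 2.54 in M2 and listed at 0 in CD4. Further rows brought it to 28.4, 17.5 and 18.4, which removes a 2-fold difference. With all rows added 4 of 12 genes were again lower in CD4 than in M1, with Bcl6 in place of Tyk2. Bcl6 was at 6.80 FPKM in CD4 and 3.29 in M1, but at 18.3 in M1 with all rows. Jak1, the kinase bound to the alpha chain, was at 146 FPKM in M2, 60.5 in M1 and 54.5 in CD4, and Jak3, the partner of the gamma chain, at 43.5, 14.5 and 20.7. Socs3 was at 54.5 FPKM in M1, 53.6 in CD4 and 19.7 in M2, the phosphatase Ptpn6 at 130, 129 and 81.8, and Ptpn1 at 73.4, 68.6 and 36.0.

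Of the PPAR partners and lipid genes, 2 of 11 were lower in the library labelled CD4 than in M1, and 1 was higher, small numbers beside the 6.43% and 6.14% of all genes. Lpl, which encodes lipoprotein lipase, was at 23.6 FPKM in M1, 3.73 in CD4 and 0.898 in M2. Cd36, a fatty acid receptor and PPARγ target, was at 10.8 FPKM in M1, 3.51 in CD4 and 1.08 in M2. Abca1, the exporter of cholesterol, was at 60.8 FPKM in CD4, 14.1 in M1 and 4.86 in M2. Plin2, a lipid droplet protein, was at 220 FPKM in M1, 191 in CD4 and 74.6 in M2, and Cpt1a at 38.8, 34.7 and 22.9. Angptl4 was at 23.5 FPKM in M2, 12.3 in CD4 and 10.2 in M1, and Rxrb at 11.4, 8.33 and 6.59.

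Across the 3 libraries, the 1 protein-coding gene nearest to each member, by the Euclidean distance of log2(FPKM + 1) among 10493 genes, was Pgls for Stat6, Opn3 for Pparg, Lims1 for Tgm2, 4930506M07Rik for Il13ra1, 2400001E08Rik for Il4ra, Cul4b for Chi3l3, Ccdc80 for Irf4 and Zc3h11a for Retnla. The distances ran from 0.06 for Pparg and Stat6 to 0.60 for Retnla. With 3 values per gene such likeness describes the levels only. Cul4b was listed at 0 in CD4 and Zc3h11a in M2. The members also differed among themselves in the order of the libraries, with M1, CD4, M2 for Retnla, Il13ra1, Stat6 and Pparg, M1, M2, CD4 for Chi3l3, Irf4 and Tgm2, and CD4, M1, M2 for Il4ra. With all rows added the lower 2 libraries changed places for Stat6, at 49.8 FPKM in M2 and 49.3 in CD4, and for Il4ra, at 34.6 in M2 and 34.1 in M1.

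The table gave the 8 genes 24 annotated transcripts, of which 23 had a row with values in all 3 columns. Of these 10 were above 0 in some library and 13 were listed at 0 in each. Repeated rows were found for Chi3l3, Il4ra, Stat6 and Irf4, and single rows for Retnla, Il13ra1, Pparg and Tgm2, whose levels did not depend on how rows were read.

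**Figure D4:**
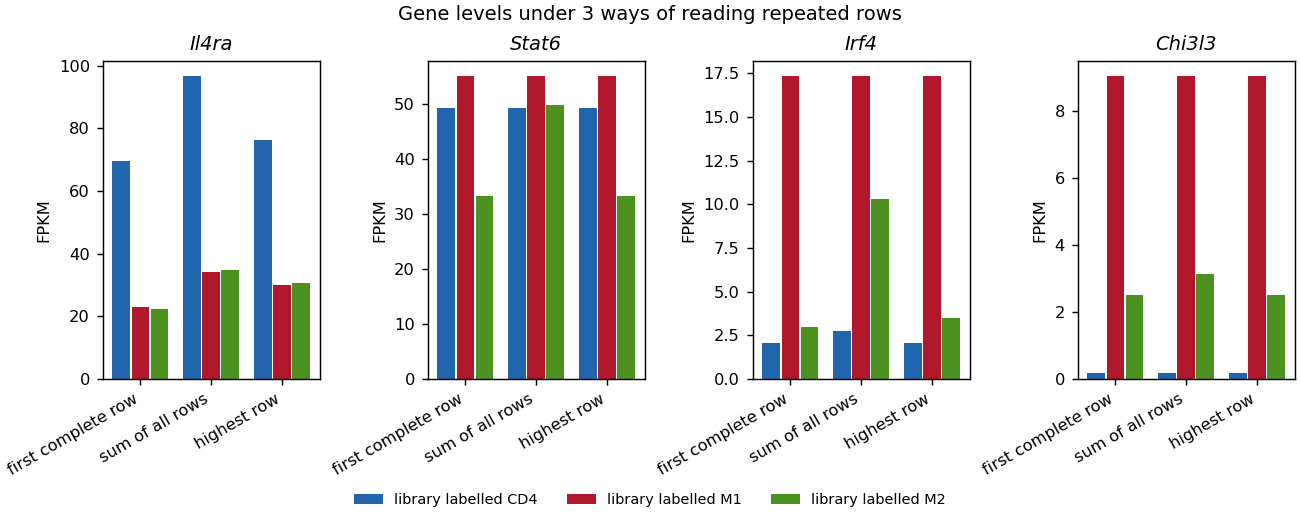
Level in FPKM (vertical axes, starting at 0, each with its own scale) of the 4 members with repeated rows, read as the first complete row, the sum of all rows or the highest row of each transcript (horizontal axes), in the libraries labelled CD4, M1 and M2, 1 library each. Irf4 in M2 goes from 2.97 to 10.3 FPKM when all rows are added, while M1 stays at 17.3.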

How the data were processed

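RNA of 3 sorted cell subsets was sequenced, with 1 library each. Paired reads of 51 bases were aligned by the authors with TopHat 1.4.1 and Bowtie 0.12.8 to build mm9, transcripts were assembled with Cufflinks 2.1.0 guided by Ensembl release 67, and FPKM values were deposited in 1 table of 135070 rows. Columns were assigned by their headings, and how the 3 assemblies were joined is not given in the sources used here. A gene level was the sum over its transcripts, in the annotation of NCBIM37 (Ensembl release 65), of the first row with a value in all 3 columns. Of 92519 identifiers 90316 were in that annotation. Ratios used log2(FPKM + 1), and genes with a mean of at least 1 FPKM formed the background. No test was possible. Depth was read from the lowest frequent value of FPKM times length, and cannot be known exactly from FPKM. The members and lists were chosen with earlier results of these data known. Genes named were the members, genes of the pathway and family lists with at least 10 FPKM in a library, the ligands, receptor chains, receptor kinases and paralogs, and for each member the nearest gene. Fcer2a, Klf4, Pdcd1lg2 and Bcl6 were named after their values were seen. Markers named outside list totals were chosen after their values were seen. Calculations were tested on simulated data. Alternatives were a pseudocount of 0.1, 2 scalings, other readings of repeated rows and no filter. Python 3.11.15, numpy 2.4.6, pandas 2.3.3, scipy 1.17.1, Biopython 1.88 and matplotlib 3.10.9 were used.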

Additional observations from a re-analysis of the deposited data

Results flagged for a closer look

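Rows of member transcripts that lacked a value in at least 1 column, and so were not used for the gene levels, held further signal. For Il4ra (ENSMUST00000033004) such rows were at 11.1 FPKM in the library labelled M1, 12.2 in M2 and 27.1 in CD4. For Stat6 (ENSMUST00000092074) such a row was at 16.6 FPKM in M2. For Irf4 (ENSMUST00000021784) such rows were at 3.51, 1.51 and 2.32 FPKM in M2. Which of several rows stands for a transcript is not described in the sources used here.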

How the results depend on the processing

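No paired analysis was possible because each subset had 1 library. Of the counts of genes past 2-fold under the alternatives, 71 stayed within 1.5 times and 1 did not. That 1 was the number of members at least 2-fold above CD4 in M2, which went from 1 to 2 with all rows added, the second being Irf4 at a log2 difference of 1.60. With all rows added, the log2 difference of M2 from M1 for Irf4 was -0.70, against -2.21 before, and with the highest transcript alone the difference was -1.28. The ratio behind the log2 differences of single members moved by a factor under 1.5 in 159 cases and by more in 9, and 0 that had passed 2-fold changed sign. Small differences could change sign, as that of M2 from M1 for Il4ra (-0.03) did with upper quartile scaling (0.03) and with all rows (0.02), and that of M2 from CD4 for Stat6 (-0.56) with all rows (0.01). With a pseudocount of 0.1, 6 moved away from 0, namely CD4 against M1 for Chi3l3 (-5.11) and the differences of M2 from M1 and from CD4 for Retnla (-6.79 and -3.98), Pparg (-2.13 and -2.05) and, from CD4, Chi3l3 (3.30). The scalings changed no ratio of a member by a factor of 1.5 or more. The lack of replicates limits every comparison, and depth limits the low levels of Retnla in M2 and Chi3l3 in CD4.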
